A study of Drosera capensis with 12 samples.

Results

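The Cape sundew (Drosera capensis) is a carnivorous plant that catches insects on sticky leaves and folds the leaf around the prey. The features described here are its most abundant transcripts in resting traps: 207 of the 397048 features of a de novo transcript assembly. They were chosen by their mock values, as features that reached 300 TPM or more in each of the 6 mock libraries. TPM is a feature's share of a library's summed values, set to a sum of 1e+06. The closed traps played no part in the choice. RNA of leaf traps had been sequenced in 12 libraries, 3 in each of 4 groups. The groups are traps closed after GSH (glutathione, a thiol tripeptide) was put on the petiole at 100 mM, their untreated mock traps, traps that closed on living fruit flies, and the unstimulated mock traps of that experiment. They are called GSH-closed, GSH mock, fly-closed and fly mock below. All are leaf tissue of 1 species. The labels name neither strain nor plant age, nor is it stated that the libraries of a group are separate plants. P-values therefore measure the spread between these libraries, which may be technical. In 1 label the fly-closed libraries carry GSH as their agent; the sample title, which names flies, was followed.

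A sundew leaf is both a photosynthetic leaf and a digestive organ. Its stalked glands make the sticky mucilage, and after prey is caught they release digestive enzymes such as proteases, chitinases and phosphatases and take up the freed nutrients, under the control of jasmonate hormones. In a green leaf the most abundant nuclear transcripts usually encode proteins of photosynthesis, of translation and of the cell's upkeep. The files do not pair features with gene names, so which of these roles a feature has is not known here, and neither the tissue nor other cell types could be checked by marker genes. Features are therefore described by their rank in mean mock TPM, and 4 are named by assembly ID.

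The 207 features were a small and steep set. Their mean mock TPM ranged from 333 to 44491, with a median of 714, and the 22 most abundant held 50% of the summed level. In mean mock TPM the first 67 places of the whole table all belonged to the set. Another 103 features also averaged 300 TPM or more over the mocks but fell below it in at least 1 mock library; 56 of these were at 300 TPM or more in all 3 GSH mocks and 38 in all 3 fly mocks. The limit of 300 TPM cut through a dense range, since the 3 features just inside it had lowest mock values of 301.7, 302.9 and 304.2 TPM and the 3 just outside 299.2, 298.2 and 297.6 TPM. The 207 features came from 198 assembly components, with 9 components giving 2 features each, and 70 had at least 1 tested sister feature of the same component, with which they may share reads. All 207 were among the 45503 features abundant enough to be tested.

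The resting programme kept a slightly smaller share of the RNA in closed traps. The 207 features held 27.9%, 27.1% and 27.6% of all TPM in the GSH-closed libraries, against 29.7%, 32.6% and 29.2% in the GSH mocks. They held 27.7%, 30.2% and 30.7% in the fly-closed libraries, against 31.6%, 32.9% and 31.1% in the fly mocks. The closed libraries lay below their own mocks in both experiments without overlap. Group means were 27.5% ± 0.399 in GSH-closed traps and 30.5% ± 1.84 in the GSH mock, and 29.5% ± 1.58 in fly-closed traps and 31.9% ± 0.944 in the fly mock (SD, n = 3 each). The next tier down, 686 features with a lowest mock value of 100 to under 300 TPM, held less in closed traps too. Its mean share was 13% ± 0.24 in GSH-closed traps and 15.6% ± 0.301 in the GSH mock. In the fly experiment its libraries overlapped, at 12.8% ± 0.7 in fly-closed traps and 13.4% ± 0.222 in the fly mock. A smaller share was thus not particular to the set. No test is given for these sums, since the mock values chose the features. The share after flies depended on what else was counted. All tested features together held between 81.7% and 90.7% of TPM in the fly-closed libraries and between 86.4% and 89% in the fly mocks. When features at 0 in all 9 libraries without flies were removed, the share was 33.7% in fly-closed traps and 31.9% in the fly mock. Those features are at 0 in the fly mock by definition, so their removal could only raise the fly-closed share. With tested features alone as the total, the mean share stayed lower in fly-closed traps than in the fly mock. In bulk RNA, fewer cells of a type and less RNA per cell cannot be told apart.

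**Figure D1:**
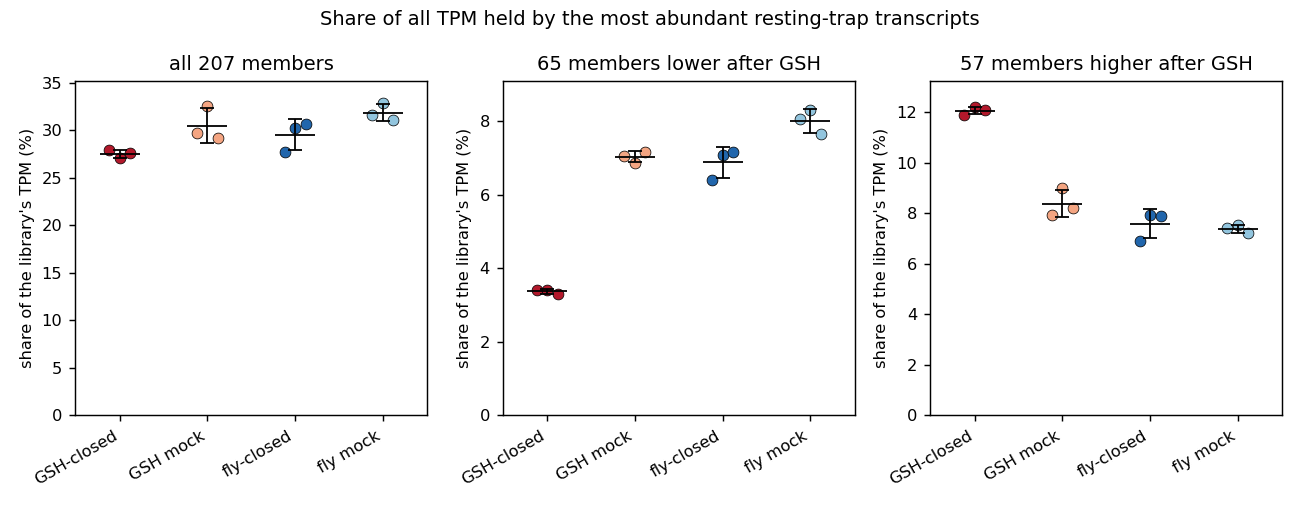
Share of each library's TPM (y axis, percent, from 0) held by all 207 features, by the 65 called lower after GSH and by the 57 called higher after GSH, in the 4 groups; points are libraries, the long bar is the mean and the whiskers are the SD (n = 3). The first set lies between 27.1% and 32.9% everywhere, while the middle set sits near 3.37% in GSH-closed traps, against 7.04% in the GSH mock; the GSH libraries chose the sets called higher and lower.

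Single features moved in both directions after GSH. By limma on scaled log2(TPM + 1) values, with p adjusted over all 45503 features and called below 0.05, 57 of the 207 features (27.5%) were higher in GSH-closed traps than in the GSH mock and 65 (31.4%) were lower. Over all tested features 14.7% were called higher and 11.1% lower. With scaling, 29 of the features called higher rose at least 2-fold and 6 of those called lower fell at least 2-fold, and the medians were 1.01 and -0.55 on the log2 scale. Without scaling that order turned round, since 6 rose and 31 fell at least 2-fold, with medians of 0.68 and -0.68. No matching 2-fold share of all tested features is given, so the 2-fold counts only describe the set. Changes ran from -1.14 to 2.82, with a median of 0.03 over the 207 features and of -0.01 over all tested features. In linear terms the ratio of mean TPM ran from 0.335 to 5.24.

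Which features rose depended on how libraries were made comparable. Scaling assumes that the bulk of features did not change, and it lifted the GSH changes by 0.43 on the log2 scale relative to plain TPM. Without it 38 features (18.4%) were called higher and 128 (61.8%) lower, against 10.3% and 25.9% of all tested features. The median change was then -0.40 for the 207 features and -0.27 for all tested features. It was -0.49 for features with a lowest mock value of 100 to under 300 TPM. For those of 30 to under 100 TPM it was -0.51, so the set fell less than the tiers below it. All 38 and all 65 features were called the same way under both, so 38 features rose and 65 fell whichever scale was used. Of the other 19 called higher with scaling, 1 was called lower without it, and of all 57 called higher, 8 had a lower mean TPM in GSH-closed traps. The 38 and 65 features are 18.4% and 31.4% of the set, while 10.3% and 11.1% of all tested features were called under both. Leaving out any 1 library left between 33 and 44 that rose and between 56 and 66 that fell under both.

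The 65 features that fell after GSH held a much smaller share of the RNA in closed traps than in mocks. It was 3.42%, 3.40% and 3.30% of all TPM in the GSH-closed libraries, against 7.07%, 6.88% and 7.18% in the GSH mocks. For all 65 the 3 GSH-closed libraries lay below the GSH mocks in TPM, as they did for 138 of the 207 features and 31.8% of all tested features. The 38 features that rose held 8.80%, 9.17% and 9.03% in the GSH-closed libraries, against 5.14%, 5.87% and 5.43% in the GSH mocks. In 36 of them the closed libraries all lay above the mocks, as in 39 of the 207 features and 12.5% of all tested features. The GSH libraries chose the 65 and the 38 features, so the sums only show how much RNA was involved. Summed over the 207 features in plain mean TPM, losses came to -6.77% of all TPM and gains to 3.76%; 16 features made up 50% of the losses and 8 made up 50% of the gains.

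**Figure D2:**
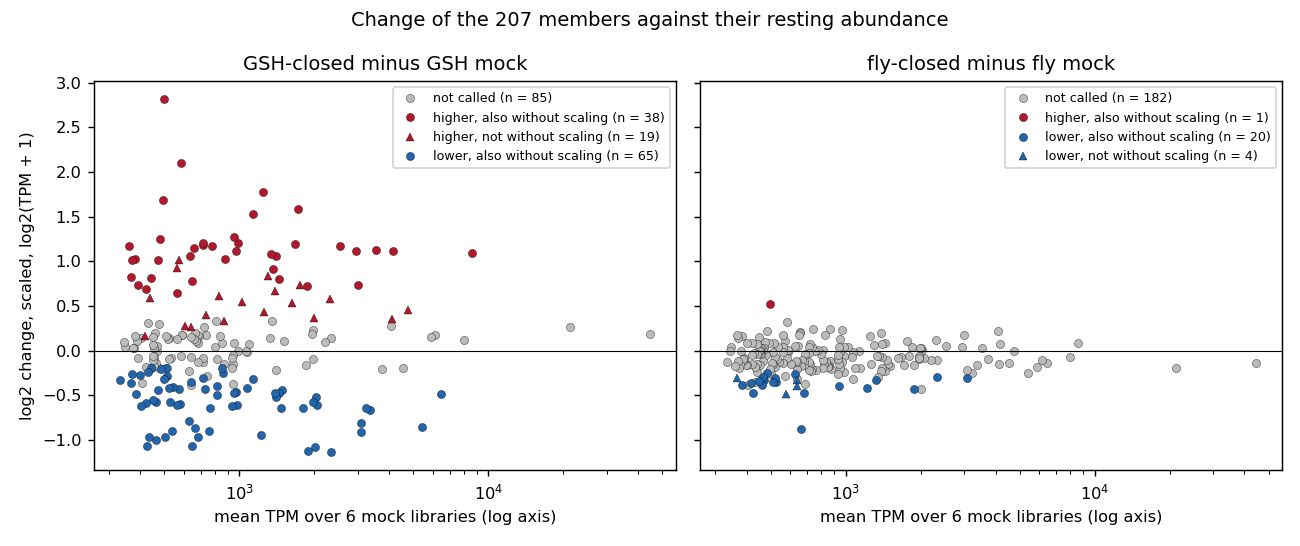
Log2 change (y axis, scaled, on log2(TPM + 1)) of each of the 207 features against its mean TPM over the 6 mock libraries (x axis, log scale), for GSH-closed minus GSH mock and fly-closed minus fly mock; colours mark limma calls and triangles mark calls that are not made without scaling. After GSH the points spread from -1.14 to 2.82, while after flies they lie between -0.88 and 0.52.

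Because the rule used the mock libraries, features that were high in a mock by chance were favoured, which can turn a change against that mock downward. The comparison was therefore repeated on features chosen in the other experiment's mocks only. Of 261 features at 300 TPM or more in all 3 fly mocks, which include the 207, 65 (24.9%) were higher and 87 (33.3%) lower in GSH-closed traps than in the GSH mock, and 43 and 87 were called under both scales. The median change of these 261 was -0.06 on the log2 scale, and -0.49 without scaling.

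The most abundant features of all show how differently single members behaved. The feature of rank 1 stood at 39363, 35410 and 39202 TPM in GSH-closed traps, against 43045, 52698 and 39816 TPM in the GSH mock. All closed libraries were below all mocks, yet the scaled change was 0.19 ± 0.13 (SE) on the log2 scale and missed the threshold (adjusted p = 0.343), as did the unscaled change of -0.24 (adjusted p = 0.0585). In the fly experiment it had 38349, 39004 and 41033 TPM in fly-closed traps, against 42617, 45739 and 43031 TPM in the fly mock, again without overlap, with a change of -0.14 ± 0.13 (adjusted p = 0.758).

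The feature of rank 2 had 16549, 14045 and 16109 TPM in GSH-closed traps, against 16009, 21563 and 15647 TPM in the GSH mock. Those groups overlapped. It had 20846, 21395 and 21894 TPM in fly-closed traps, against 24373, 25570 and 24292 TPM in the fly mock, where the closed libraries were all lower. Neither change was called (adjusted p = 0.260 after GSH and 0.665 after flies). Rank 3 was a feature that rose after GSH, with 12428, 13332 and 13344 TPM in GSH-closed traps, against 7999, 8751 and 8093 TPM in the GSH mock. Its change was 1.09 ± 0.08 (SE, adjusted p = 2.19e-06) with scaling and 0.65 (adjusted p = 2.25e-05) without. It gained 4753 TPM, the largest gain of the 207 features. In the fly experiment it had 8502, 9916 and 9901 TPM in fly-closed traps, against 8929, 9167 and 8532 TPM in the fly mock, which overlap (adjusted p = 0.718).

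The feature of rank 4 had 7535, 6593 and 7133 TPM in GSH-closed traps, against 8708, 10690 and 7312 TPM in the GSH mock, with overlap. Its values after flies overlapped too, at 6831, 6546 and 6546 TPM in fly-closed traps, against 6551, 7161 and 7304 TPM in the fly mock. Rank 5 fell after GSH to 3416, 3423 and 3410 TPM, against 6062, 6533 and 6833 TPM in the GSH mock, a change of -0.49 ± 0.08 (SE, adjusted p = 0.000797) with scaling and -0.92 without. It had 5332, 6212 and 5963 TPM in fly-closed traps, against 6544, 6986 and 5857 TPM in the fly mock, and that change was not called (adjusted p = 0.512). By mean TPM it held place 18 of the whole table in GSH-closed traps and place 5 in the GSH mock. The feature of rank 8 moved further, to place 53 in GSH-closed traps, against place 16 in the GSH mock. It had 1675, 1507 and 1263 TPM in GSH-closed traps, against 3819, 3447 and 3592 TPM in the GSH mock. The change was -0.86 ± 0.12 (SE, adjusted p = 0.00042). In the fly experiment it had 5800, 6386 and 5792 TPM in fly-closed traps, against 6997, 8144 and 6474 TPM in the fly mock. The closed libraries were all lower there too, but that change was not called (adjusted p = 0.423). Its GSH mock also stood below its fly mock.

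Scaling alone made the call of the feature of rank 9. It had 4882, 4865 and 4714 TPM in GSH-closed traps, against 4646, 5058 and 4600 TPM in the GSH mock. The groups overlap in TPM, and the change was 0.02 without scaling (adjusted p = 0.874) but 0.45 ± 0.08 with it (SE, adjusted p = 0.00212). Ranks 8 and 9 were picked for description after their values were seen.

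**Figure D3:**
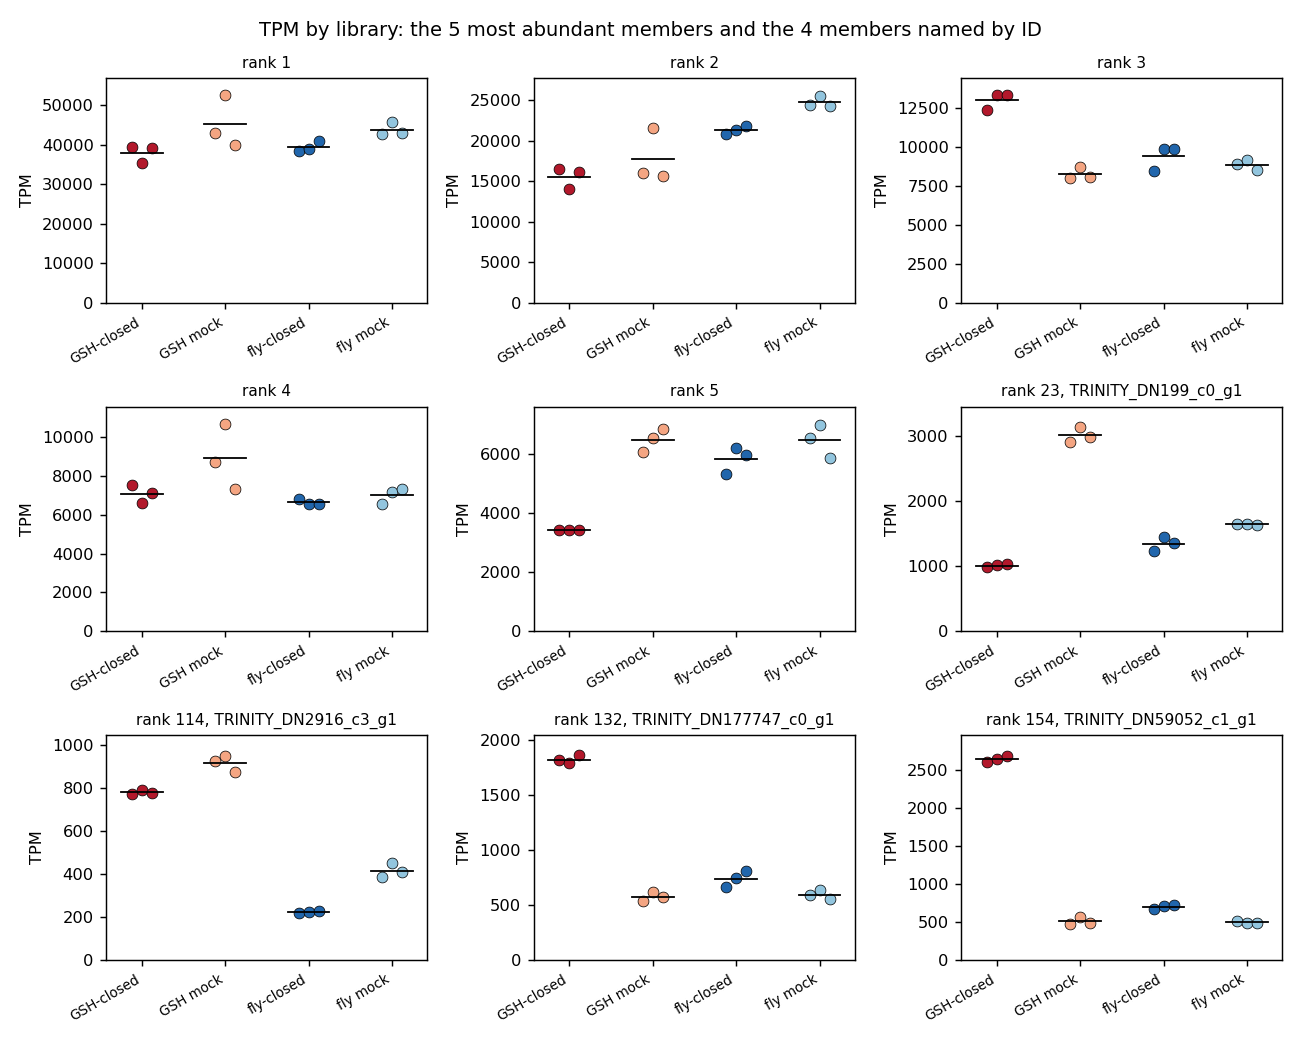
TPM in each of the 12 libraries (points, linear axes from 0, with the group mean as a bar) for the 5 most abundant features and the 4 features named by ID. Ranks 1 and 4 have groups close together, whereas TRINITY_DN59052_c1_g1 stands between 2598 and 2673 TPM in GSH-closed traps, against 468 to 556 TPM in the GSH mock.

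The features named by ID were the largest called changes whose groups do not overlap in TPM. TRINITY_DN59052_c1_g1, of rank 154, had 2598, 2639 and 2673 TPM in GSH-closed traps, against 468, 556 and 485 TPM in the GSH mock. It had 663, 708 and 718 TPM in fly-closed traps, against 514, 477 and 478 TPM in the fly mock. It rose in both experiments without overlap, after GSH by 2.82 ± 0.09 (SE, log2, adjusted p = 4.48e-09) and after flies by 0.52 ± 0.09 (adjusted p = 0.00563). It was the only feature of the 207 called higher after flies in the scaled fit of all libraries.

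TRINITY_DN177747_c0_g1, of rank 132, had 1817, 1787 and 1860 TPM in GSH-closed traps, against 538, 613 and 572 TPM in the GSH mock, a rise of 2.10 ± 0.09 (SE, adjusted p = 3.56e-08). In the fly experiment it had 664, 740 and 808 TPM in fly-closed traps, against 585, 634 and 555 TPM in the fly mock. The closed libraries were all higher there too, with a change of 0.32 ± 0.09 (adjusted p = 0.0728) that was called without scaling (adjusted p = 0.0413).

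TRINITY_DN199_c0_g1, of rank 23, had the deepest fall after GSH, with 985, 1017 and 1032 TPM in GSH-closed traps, against 2909, 3152 and 2993 TPM in the GSH mock, a change of -1.14 ± 0.07 (SE, adjusted p = 7.38e-07). It had 1237, 1446 and 1351 TPM in fly-closed traps, against 1657, 1644 and 1640 TPM in the fly mock, a change of -0.29 ± 0.07 (adjusted p = 0.0461). The groups are apart in both experiments. Of 23 alternatives 16 did not call the change after flies, and its adjusted p ran from 0.00137 to 0.201 over them. Its GSH mock also stood above its fly mock, and it has 1 tested sister feature.

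TRINITY_DN2916_c3_g1, of rank 114, had the deepest fall after flies. It had 218, 222 and 228 TPM in fly-closed traps, against 384, 449 and 410 TPM in the fly mock, a change of -0.88 ± 0.09 (SE, adjusted p = 0.000112). In the GSH experiment it had 770, 788 and 777 TPM in GSH-closed traps, against 925, 948 and 872 TPM in the GSH mock. There the closed libraries were lower in TPM, but the scaled change was 0.20 ± 0.09 (adjusted p = 0.141) and the unscaled change -0.23 (adjusted p = 0.00794), so its direction after GSH depends on the scaling.

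After flies the set moved much less, and mostly downward. Of the 207 features, 24 (11.6%) were lower in fly-closed traps than in the fly mock and 1 (0.483%) was higher. Over all tested features 0.796% were called lower and 4.77% higher. No called feature changed 2-fold; the median of those that fell was -0.35 on the log2 scale, the median over the 207 features was -0.10, and that of all tested features was 0.00. In plain TPM the fly-closed libraries all lay below the fly mock for 81 features and all above it for 14, while 112 overlapped; over all tested features 8.24% lay all below and 10.9% all above. Summed over the 207 features, losses came to -2.80% of all TPM and gains to 0.471%.

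Scaling mattered little here, shifting the fly changes by 0.01 on the log2 scale; 20 features were called lower under both scales and 0.554% of all tested features were. A set chosen without the fly libraries had more features that rose. Of 292 features at 300 TPM or more in all 3 GSH mocks, 13 (4.45%) were called higher and 27 (9.25%) lower after flies, so the share called higher was close to the 4.77% of all tested features. Leaving out GSH mock replicate 2 gave 6 features (2.90%) called higher after flies, and leaving out any other library gave 1. The count of falls after flies also rested on few libraries: when fly-closed libraries were left out singly, 11 were called lower without the library of replicate 1, 14 without that of replicate 2 and 16 without that of replicate 3. Under both scales the count ran from 9 without fly-closed replicate 1 or fly mock replicate 2 to 30 without GSH mock replicate 2. That last library also had the highest share of TPM in the 207 features among the GSH mocks; its part in the calls after flies, which it enters through the shared fit, was not tested.

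Calls varied with abundance inside the set. After GSH, 18 of the 90 features with a lowest mock value of 300 to under 500 TPM (20%) were higher, 20 of 68 between 500 and 1000 TPM (29.4%), and 19 of 49 at 1000 TPM or more (38.8%), while the share called lower was 32.2%, 30.9% and 30.6%. In the next tier below the set, 686 features with a lowest mock value of 100 to under 300 TPM, 18.7% were higher and 28.9% lower after GSH, and in 3073 features between 30 and 100 TPM 21.2% were higher and 28.0% lower. After flies the shares called lower were 14.4%, 11.8% and 6.12% in the 3 tiers of the set from low to high abundance, against 6.12% and 3.06% in the tiers of 100 to under 300 and 30 to under 100 TPM. The median SE of a change was 0.09, 0.09 and 0.10 in the 3 tiers of the set from low to high abundance, 0.08 in each of the 2 tiers below, and 0.24 over all tested features. With scaling, the median change after GSH was 0.03 in the set, and -0.06 and -0.09 in the 2 tiers below. After flies it was -0.10 in the set and -0.06 in each of the 2 tiers below. These shares and medians are descriptions and no difference between tiers was tested.

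**Figure D4:**
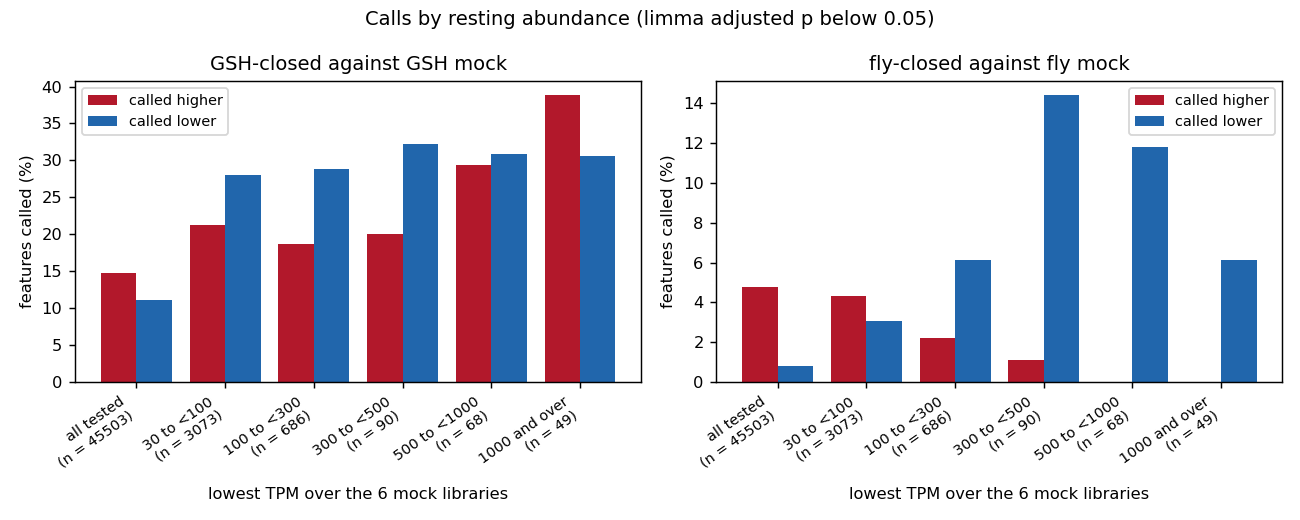
Percent of features called higher and lower (bars from 0, limma adjusted p below 0.05) in tiers of the lowest TPM over the 6 mock libraries, from all tested features at the left to the most abundant tier at the right, for GSH-closed against GSH mock and fly-closed against fly mock. After GSH the share called higher is 38.8% in the top tier, and after flies the share called lower is 14.4% in the tier of 300 to under 500 TPM.

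Fewer of the very abundant transcripts of GSH-closed traps were resting-trap features. In GSH-closed traps 337 features stood at 300 TPM or more in all 3 libraries, against 292 in the GSH mock. Of the 207 resting-trap features 159 were still among them, which is 76.8% of the set and 47.2% of the 337. In the GSH mock the 207 features, all present by the rule, were 70.9% of the 292. The other 178 had a median of 93 TPM over the 6 mock libraries; 87 of them had been at 100 TPM or more in every GSH mock and 24 under 30 TPM in every GSH mock. These 178 held 11.5% ± 0.177 of all TPM in GSH-closed traps, against 4.10% ± 0.0561 for the 85 others of the GSH mock (SD, n = 3 each). Of the 207 features, 37 were below 300 TPM in all 3 GSH-closed libraries, but the lowest value of any was 111 TPM. With TPM divided by the scaling factor, 86.0% of the 207 stayed at 300 TPM or more.

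After flies the class was nearly kept. In fly-closed traps 243 features were at 300 TPM or more in all 3 libraries, against 261 in the fly mock, and 191 were resting-trap features, which is 92.3% of the set and 78.6% of the 243. In the fly mock the 207 features were 79.3% of the 261. The other 52 had a median of 329 TPM over the 6 mocks. Only 5 of the 207 features were below 300 TPM in all 3 fly-closed libraries, and the lowest value was 218 TPM. Ranks by mean TPM show the same order. The top 100 of the whole table held 70 of the 207 features in GSH-closed traps and 93 in the GSH mock, and 98 in fly-closed traps and 99 in the fly mock.

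The changes after the stimuli went together across features, although the experiments share no libraries. Over the 207 features, Spearman's rho between the change after GSH and after flies was 0.59 and Pearson's r was 0.60. This is a description across features, which are not independent replicates, and both changes come from 1 fit. No correlation over all tested features or the tiers below is given, so it cannot be called particular to the set. By the sign of the scaled changes, 88 features went downward in both, 49 upward in both, 57 upward after GSH and downward after flies, and 13 the other way. These counts depend on the scaling, which lifted the GSH changes. In plain mean TPM, 158 of the 207 features were lower in GSH-closed traps than in the GSH mock. By the same measure 148 were lower in fly-closed traps than in the fly mock. The median over all 45503 tested features, on unscaled log2 values, was also below 0 after GSH (-0.27) and was 0 after flies. With scaling, 79 features were called in no comparison. Only 23 were called neither after GSH nor after flies, with or without scaling. The shares of all tested features with these signs, directions or missing calls are not given, so the counts only describe the set. Of the 24 features that fell after flies, 18 (75%) also fell after GSH, 2 were called higher after GSH with scaling and 4 were not called; the 18 are 27.7% of the 65 that fell after GSH. Over all tested features, 174 of the 362 that fell after flies (48.1%) also fell after GSH, which is 3.44% of those that fell after GSH. The difference between these shares was not tested. Under both scales only 20 features fell after flies. Of these 15 also fell after GSH, and none was among the 38 that rose after GSH. No matching share of all tested features is given under both scales, so these counts only describe the set. The 65 features that fell after GSH had a median change of -0.22 after flies, and 48 of them had all fly-closed libraries below the fly mock. The 38 that rose had a median change of 0.06 after flies, and 8 had all fly-closed libraries above the fly mock. Of all 207 features, 81 lay all below and 14 all above, beside 8.24% and 10.9% of all tested features.

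The GSH change minus the fly change was tested too, and 73 of the 207 features were called. The GSH change exceeded the fly change in 47 (22.7%) and was under it in 26 (12.6%), against 9.22% and 5.89% of all tested features. Without scaling 29 (14.0%) were above and 97 (46.9%) below, against 6.11% and 17.4% of all tested features. All of the 29 and the 26 were called the same way under both, as were 6.07% and 5.89% of all tested features. The 47 include 41 of the features called higher after GSH, and the 26 were all among those that fell after GSH. For 39 of the 65 features that fell after GSH the difference missed the threshold, which does not show that they responded alike. Without GSH mock replicate 2 the count above was 80.

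**Figure D5:**
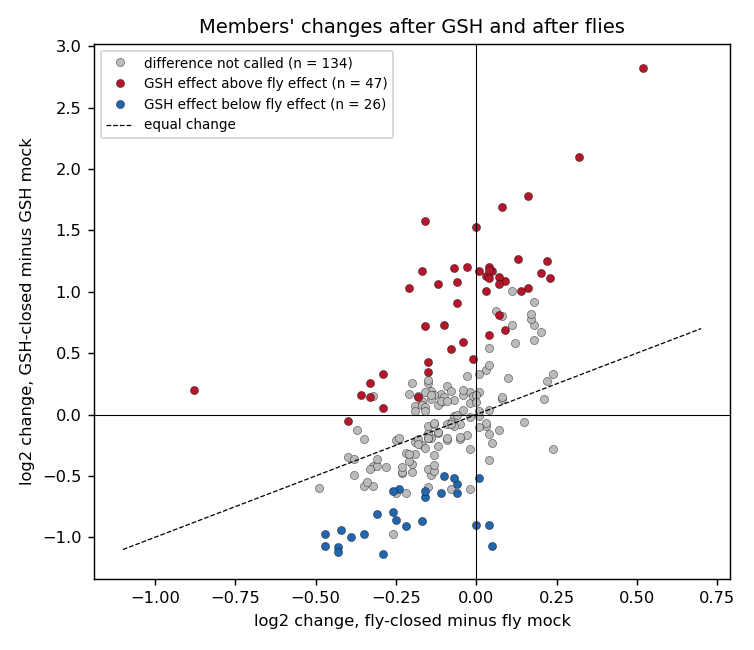
Log2 change after GSH (y axis) against log2 change after flies (x axis) for the 207 features, both scaled; colours mark the limma call of the difference between the changes, and the dashed line marks equal change. The 47 features with the larger GSH effect lie above the line, and TRINITY_DN2916_c3_g1 stands alone at -0.88 after flies and 0.20 after GSH.

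All 3 GSH mocks lay above all 3 fly mocks in TPM for 72 features and below them for 73, while 62 overlapped. Over all tested features 17.8% lay all above and 7.46% all below. With scaling the median size of the difference between the mocks was 0.39 on the log2 scale, beside 0.36 for the change after GSH and 0.14 for the change after flies; without scaling these were 0.41, 0.59 and 0.15. At least 2-fold, 5 features were higher in the GSH mock and 18 were higher in the fly mock with scaling, and 5 and 7 without it. The mock values chose the set, so these values carry no test, and no 2-fold share of all tested features is given. Replicates were close: the median coefficient of variation of a feature's TPM was 4.44% in GSH-closed traps and 8.32% in the GSH mock, and 6.98% in fly-closed traps and 4.57% in the fly mock.

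Of the features that share an assembly component, none were called in opposite directions after GSH. In 4 of the 9 components with 2 of these features, both were called the same way after GSH, and in the other 5 neither was called. The pair of ranks 8 and 38 changed by -0.86 and -0.64, and the pair of ranks 47 and 67 by 0.80 and 0.54. Such pairs may share reads and are not independent. For 10 of the 207 features, sister features of the same component held over 50% of the component's mock TPM. With values summed over components, 54 of 198 components (27.3%) were called higher and 60 (30.3%) lower after GSH. No share over all tested components is given, so these percentages can be set only beside those of the 207 features.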

How the data were processed

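The tools named, per the submitters' processing notes, are RSEM, DESeq2 (version 1.16.1), Trimmomatic and cutadapt, without their roles. Aligner, assembler and annotation: not given in the sources used here. The deposited table holds a rescaled signal: in every library, among values over 0 and under 60, 100% came within 0.0051 of a multiple of the column sum divided by 1e+08, and at most 2.25% came within 0.005 of a whole number. Column sums ran from 17708300 to 20453100; they are no read depth, which is unknown. TPM is the deposited signal divided by its column sum, times 1e+06. Whether feature length was corrected for was not shown by the values, so levels of different features are compared only as TPM, and short fragments may be inflated.

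Features with at least 0.526 TPM (a value of 10 at the median column sum) in 3 or more libraries were tested. Libraries were scaled by an unweighted trimmed mean of log ratios (30% of ratios and 5% of abundances trimmed at each end), and log2(TPM + 1) was fitted in R (4.3.3) by limma (3.58.1) (4 groups, 8 residual degrees of freedom, trend and robust options). Benjamini-Hochberg adjusted p below 0.05 over all 45503 features made a call. The calculation was tested on simulated data, in which equally many features rose and fell while the rest did not change. That simulation cannot show whether the assumption behind the scaling held in the GSH libraries. The set, tiers and tests were chosen with earlier results of these data known. The rule for IDs took, among features called with groups that do not overlap, the largest rise and fall after GSH and after flies; only 1 feature rose after flies, and it also had the largest rise after GSH, so the second rise after GSH was taken. Lists of gene names could not be applied. Alternatives covered scaling, pseudocount, filter, fold minimum, samples in the fit, variance options, a replicate block, each library left out, the rule's minimum and the mocks it used. Calls under both scales, component sums and removal of features seen with flies alone were chosen after seeing the data.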

Additional observations from a re-analysis of the deposited data

Results flagged for a closer look

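For 5 of the 9 features given in every library, the test of the difference between the responses was passed, each time as GSH effect minus fly effect on the log2 scale with the limma adjusted p. It was 2.31 ± 0.13 (SE, adjusted p = 1.39e-06) for TRINITY_DN59052_c1_g1 and 1.77 ± 0.13 (adjusted p = 6.98e-06) for TRINITY_DN177747_c0_g1, which rose more after GSH. It was -0.86 ± 0.10 (adjusted p = 0.00023) for TRINITY_DN199_c0_g1, which fell more after GSH. It was 1.08 ± 0.13 (adjusted p = 0.000217) for TRINITY_DN2916_c3_g1, the feature that fell most after flies. It was 0.99 ± 0.11 (adjusted p = 0.000149) for the feature of rank 3, which rose after GSH. The first 4 were picked for large changes, so the sizes are descriptions of extremes. For TRINITY_DN2916_c3_g1 the mocks differed too, with a mean of 915 TPM in the GSH mock and 414 TPM in the fly mock.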

How the results depend on the processing

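Without scaling, 61.8% of the 207 features were called lower after GSH, 1.93% higher after flies, and for the difference of effects 14.0% above and 46.9% below; the median change after GSH was -0.40, and TRINITY_DN2916_c3_g1 changed by -0.23 after GSH, against 0.20 with scaling. Trimmed means without these features, and median ratios, kept every percentage within 1.5 times. At least 2-fold, 14.0% were higher and 2.90% lower after GSH, 0% higher and 0% lower after flies, and 10.6% above and 0.483% below for the difference. No 2-fold shares of all tested features are given beside these percentages. With no filter 7.73% were lower after flies (4.83% under both scales), 8.21% below for the difference, and the median after GSH was -0.03. Without trend and robust options 5.31% were lower after flies and 8.21% below for the difference. With only the groups compared in the fit, 1.45% were higher after flies.

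Chosen at 200 TPM, 0.274% were higher after flies and the median after GSH was -0.05; at 500 TPM these were 0% and 0.10. Chosen in the other experiment's mocks, the median after GSH was -0.06 and that after flies -0.05, with 4.45% higher after flies; without scaling too, 16.5% were higher and 66.3% lower after GSH, 5.48% higher after flies, and medians were -0.49 and -0.06. The share of TPM was 31.4%, 35.6%, 34.0% and 36.6% at 200 TPM and 23.7%, 26.2%, 25.3% and 27.3% at 500 TPM in GSH-closed, GSH mock, fly-closed and fly mock; of tested features alone it was 28.9%, 31.8%, 33.9% and 36.2%. With features seen with flies alone removed it was 33.7% in fly-closed traps, a share that this removal could only raise.

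Leaving out each library moved the GSH median between -0.05 and 0.07 and the fly median between -0.15 and -0.06. The percent called ranged from 0.483 to 2.90 higher and from 5.31 to 17.4 lower after flies (from 4.35 to 14.5 under both scales), and from 19.8 to 38.6 above for the difference; the highest of each came without GSH mock replicate 2. Same-numbered closed and mock libraries did not deviate together (r from -0.01 to 0.01). Over all closed and mock pairs within an experiment r ran from -0.01 to 0.02. The numbers are those of the sample titles, which the replicate block also used, and whether libraries were paired in another way is not stated. With a replicate block 26.1% were higher and 29.0% lower after GSH, and 5.31% lower after flies under both scales. The causes were not tested.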
